A study of Mus musculus with 8 samples.

Results

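The genes described here make up the MHC class I presentation route and its specialised proteasome: B2m, H2-K1, H2-D1, Tap1, Tap2, Tapbp, Psmb8, Psmb9, Psmb10 and Nlrc5. They were chosen by name, with earlier results of these data known. All 10 were found among the 24112 genes listed in each library by matching Entrez IDs to mouse symbols. RNA came from LSK cells, a sorted marrow population that lacks lineage markers, carries Sca1 and Kit, and is rich in blood stem and early progenitor cells. The cells were taken from C57BL/6 mice that had been transplanted with donor marrow. In the wild-type group (WT, 4 libraries) the donor marrow carried Vav-Cre, a recombinase expressed in blood cells, and in the knockout group (KO, 4 libraries) it carried Vav-Cre together with loss of Traf6, so Cre was present in both groups. The labels give no age, and they leave unsaid whether host LSK cells were gated out. They also do not tie each library to its own mouse; p-values therefore reflect only library-to-library spread, which may be technical. TRAF6 is a ubiquitin ligase that links innate immune receptors to NF-κB, and the study asked about basal NF-κB activity in blood stem cells.

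Nearly all nucleated cells display fragments of their own proteins on MHC class I molecules, where cytotoxic T cells inspect them. A class I molecule is a heavy chain (H2-K1 or H2-D1 in this strain) bound to β2-microglobulin (B2m). Its peptides are cut by the proteasome, carried into the endoplasmic reticulum by the Tap1-Tap2 transporter, and loaded with the help of tapasin (Tapbp), which holds the empty heavy chain at the transporter. In blood cells and in cells exposed to interferon, the catalytic subunits Psmb8, Psmb9 and Psmb10 take the places of Psmb5, Psmb6 and Psmb7 and form the immunoproteasome, which favours cuts that leave ends fitting the class I groove. NLRC5 is the transactivator of class I genes and acts through a promoter module of X and Y boxes, beside which lie sites for NF-κB and for interferon regulatory factors (IRF).

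The upstream sequences of the class I heavy chains, B2m and the Psmb9-Tap1 pair are printed because they hold those sites in readable form. They come from RefSeq on GRCm38.p6, in which 8 of the 10 genes had an entry; Tap2 and Nlrc5 had none. For H2-K1 (chr17:34000348-34000597, minus strand), H2-D1 (chr17:35262844-35263093, plus strand) and B2m (chr2:122147437-122147686, plus strand) the 250 bases before the annotated transcription start are given 5′ to 3′, taking the more upstream start for H2-K1. Psmb9 and Tap1 are neighbours on chromosome 17 transcribed away from each other, and the 225 bases between their starts (chr17:34187331-34187555, shown on the plus strand, Tap1 to the right) serve as upstream sequence for both. Capitals mark matches to the motifs searched, on either strand.
H2-K1: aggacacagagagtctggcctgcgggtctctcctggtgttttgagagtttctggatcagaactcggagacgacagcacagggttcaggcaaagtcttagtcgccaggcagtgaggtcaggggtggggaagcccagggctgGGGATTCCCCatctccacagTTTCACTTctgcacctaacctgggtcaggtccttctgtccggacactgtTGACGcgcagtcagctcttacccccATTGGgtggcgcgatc
H2-D1: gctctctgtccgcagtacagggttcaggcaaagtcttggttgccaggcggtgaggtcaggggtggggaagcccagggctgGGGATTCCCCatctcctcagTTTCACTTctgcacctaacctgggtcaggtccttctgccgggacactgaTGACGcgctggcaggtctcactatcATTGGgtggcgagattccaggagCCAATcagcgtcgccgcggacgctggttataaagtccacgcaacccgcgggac
B2m: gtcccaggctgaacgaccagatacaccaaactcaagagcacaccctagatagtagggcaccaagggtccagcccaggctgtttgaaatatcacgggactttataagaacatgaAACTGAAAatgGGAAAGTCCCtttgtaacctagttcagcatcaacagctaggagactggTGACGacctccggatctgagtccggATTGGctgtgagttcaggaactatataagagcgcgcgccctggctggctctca
between Psmb9 and Tap1: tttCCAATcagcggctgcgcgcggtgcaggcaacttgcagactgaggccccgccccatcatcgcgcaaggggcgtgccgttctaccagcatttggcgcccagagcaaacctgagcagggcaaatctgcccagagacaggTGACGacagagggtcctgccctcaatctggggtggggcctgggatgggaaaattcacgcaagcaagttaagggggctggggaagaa

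The motifs were the NF-κB site of the class I enhancer (the first run of capitals in H2-K1), the NF-κB site of the immunoglobulin kappa enhancer (present on the opposite strand as the second run of capitals in B2m), AANNGAAA (the IRF core), TGACG (the CREB/ATF core found in X boxes) and CCAAT (the core of the Y box). They were picked with the sequences in view. In the printed H2-K1 sequence the capitals are, from left to right, the class I NF-κB site, the IRF core on the opposite strand, TGACG and CCAAT on the opposite strand. H2-D1 has the same 4 matches at the same spacing, and a further CCAAT match. With the H2-D1 sequence shifted by 60 bases, 166 of 190 aligned bases were identical to H2-K1 (87.4%). B2m carries the IRF core followed closely by the kappa NF-κB site on the opposite strand, then TGACG, and CCAAT on the opposite strand. The Psmb9-Tap1 interval holds 1 CCAAT and 1 TGACG match and neither of the exact NF-κB strings searched. Of the windows for the other members, Tapbp held CCAAT matches alone, and those of Psmb8 and Psmb10 held no match to these letters. The class I NF-κB site was present in 28 of 32536 windows of 250 bases upstream of mouse genes (0.0861%) and the kappa site in 46 (0.141%). Because the motifs were picked with the H2-K1, H2-D1 and B2m windows in view, these shares are no test of their presence there. The shorter motifs were common: AANNGAAA was in 21.3% of windows, TGACG in 17.9% and CCAAT in 33.8%. A match is a string of letters, not a shown binding site. Variants of the NF-κB strings were not searched, so a missing match does not show that a site is absent.

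Values are RPKM, the reads of a gene scaled to its length and to the reads of the library, as deposited by the authors. Low values gave an estimated depth of 18.9 to 24.6 megareads in WT and 22.2 to 30.4 megareads in KO. WT2, KO3 and KO4 stood apart from the other libraries. They listed 11169, 9055 and 10674 genes above 0, against 12754 to 13689 in the other 5, and each was set alone by one of the first 3 principal components. Lane 5 held KO3 and KO4 and lane 4 held the rest, so the effect of lane on KO cannot be fully told apart from that of genotype. Traf6 itself was at 3.52 to 14.9 RPKM across WT, against 0 to 0.818 RPKM in KO (log2 difference -2.75 ± 0.53, limma adjusted p = 0.341). The sorting markers Kit (50.6 to 113 RPKM) and Ly6a, which encodes Sca1 (6.53 to 11.8), and the progenitor marker Cd34 (178 to 284) were listed in every library. The summed LSK marker list stood at 514 to 625 RPKM for WT and 340 to 551 for KO, with 10 of its 10 log2 differences negative (median -0.62) and 0 past the adjusted threshold. The unadjusted limma p was under 0.05, lower in KO, for 4 of the 10, beside 4.74% of all genes tested. In these 4 the KO mean was 57.6% (Flt3), 43.2% (Hlf), 40.4% (Procr) and 23.4% (Mecom) of the WT mean, against 95.5% for Kit. KO values lay wholly below WT values in 2 of the 10 (Flt3 and Mecom), beside 3.88% of all genes tested. Among markers of mature cells, Cd79a, Ms4a1, Cd3e, Cd3g, Cd8a, Ltf and Cdh5 were below 1 RPKM in all 8 libraries, but other markers of the same lists were not. Cd79b was at 4.78 to 16.3 RPKM over all libraries and Pecam1 at 9.25 to 26.3. The summed neutrophil list was at 0 to 10.3 RPKM for WT, highest through Ngp, and 0.167 to 35.9 for KO, highest through S100a9. The summed erythroid list stood at 31.8 to 134 RPKM for WT and 40.0 to 60.0 for KO, and the endothelial and stromal list at 16.3 to 27.6 and 13.8 to 24.8. The summed macrophage and dendritic list, mostly Lyz2, stood at 141 to 194 RPKM for WT and 155 to 191 for KO. Within it Csf1r, the receptor for macrophage colony-stimulating factor, lay wholly higher in KO (at most 5.79 RPKM in a WT library and no lower than 6.04 in a KO library, log2 difference 1.68 ± 0.61, limma adjusted p = 0.627). Of the 5 genes of this list that were tested, the other 4 had negative differences. The T and NK cell list, mostly Lck, was at 25.2 to 42.6 in WT and 6.69 to 24.5 in KO; the part of these lists and of Csf1r in the results was not tested. In bulk RNA, fewer cells of a type and less RNA per cell cannot be told apart.

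All 10 genes were listed above 0 in every library of both genotypes. On the RPKM scale the mean levels over the 8 libraries ran from B2m (1569) through H2-D1 (808), H2-K1 (807), Psmb8 (220), Tap2 (128), Tap1 (73.3), Tapbp (67.7), Psmb9 (51.6) and Psmb10 (47.2) to Nlrc5 (12.9). B2m ranked 30 among the 24112 genes by mean level, H2-D1 ranked 84 and H2-K1 ranked 85. The 8 values of B2m all lay above those of H2-D1, those of H2-K1 above those of Psmb8, those of Psmb8 above those of Tap2, and those of Tap2 above those of Tap1. H2-D1 and H2-K1 could not be ordered, and neither could Tap1, Tapbp, Psmb9 and Psmb10 among neighbours, because their ranges overlapped. Nlrc5 was below Psmb10 within each of the 8 libraries, although the 2 ranges overlapped.

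**Figure D1:**
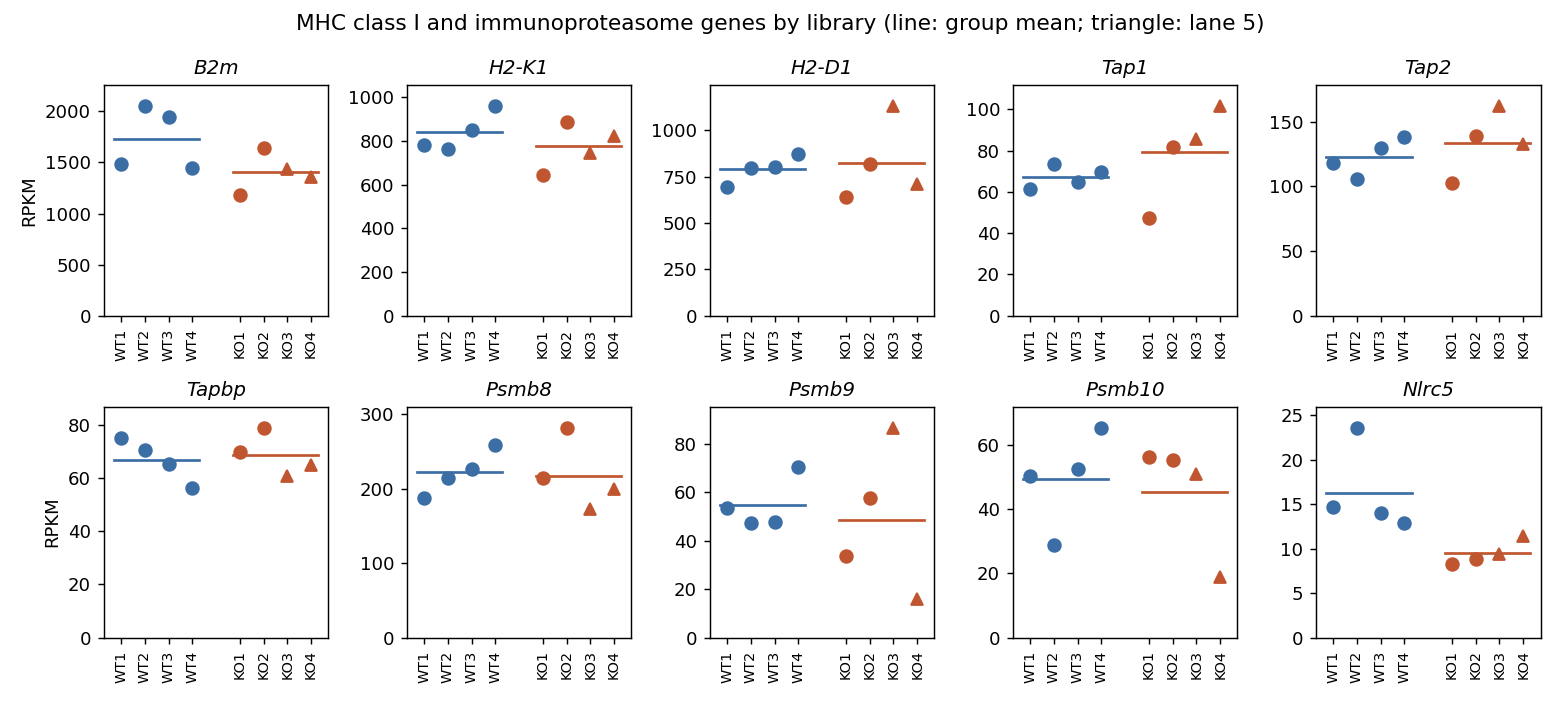
RPKM (vertical axis, from 0, 1 panel per gene) of the 10 genes in each library (horizontal axis), with WT in blue, KO in orange, lane 5 libraries as triangles and group means as lines. Nlrc5 is the only panel in which all 4 KO points (8.23 to 11.4) lie below all 4 WT points (12.9 to 23.6).

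The limma fit covered 11276 genes, of which 0 passed an adjusted p of 0.05 in either direction (0.0% higher and 0.0% lower), and 0 of the 10 class I and immunoproteasome genes passed, with adjusted p between 0.645 and 0.972. An unadjusted p under 0.05 was reached by 847 genes, 7.51% of those tested (2.77% higher and 4.74% lower in KO). Of the 10, 1 reached it, Nlrc5, lower in KO. KO values lay wholly below WT values in the same 1 of 10 genes, against 3.88% of all genes tested, and wholly above in 0 of 10, against 2.05% (5.92% in either direction). With 10 genes, 1 is too few to set apart from these shares. Of the 10 log2 differences (KO minus WT, on log2(RPKM + 1)) 6 were negative and 4 positive, where 61.0% of all genes tested were negative. Their median was -0.08, beside -0.14 for all genes tested, and they ran from -0.70 to 0.18. The median of all genes moved to 0.00 with quantile normalization, so a difference near -0.14 is no departure from the other genes.

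Nlrc5, the class I transactivator, had the largest difference of the 10. Its level was 14.7, 23.6, 14.0 and 12.9 RPKM in WT1 to WT4, and 8.23, 8.82, 9.43 and 11.4 RPKM in KO1 to KO4. WT2 stood high within WT, and the groups did not overlap. Group means were 16.3 ± 4.93 and 9.47 ± 1.37 RPKM (SD, n = 4 each), so the KO mean was 58.1% of the WT mean. The log2 difference was -0.70 ± 0.29 (SE), with a 95% interval from -1.35 to -0.05. Its limma p was 0.0383 before adjustment and 0.645 after, so Nlrc5 did not pass the threshold. Without WT2 the difference was -0.51 (limma adjusted p = 0.855), and in the lane 4 libraries alone it was -0.82 (adjusted p = 0.378). The difference was negative in all 17 alternative settings, from -0.82 to -0.51, with adjusted p from 0.116 to 0.889. In 7 of these 17 settings its unadjusted limma p was above 0.05, so that the interval included 0. No 50-base stretch of the longest coding Nlrc5 transcript occurs in a transcript of another gene in GENCODE M21. The opposite strand of those transcripts and the rest of the genome were not searched.

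The class I chains themselves did not pass the test, and their groups overlapped. B2m, the light chain of every class I molecule, was at 1484, 2053, 1940 and 1442 RPKM across WT and 1184, 1646, 1439 and 1360 in KO. WT2 and WT3 lay above every KO library, WT1 and WT4 lay within the KO range, and KO1 was lowest. The log2 difference was -0.29 ± 0.16 (95% interval -0.65 to 0.07, limma adjusted p = 0.695), which leaves the KO level between 0.637 and 1.05 times that of WT on this scale. With library weights the B2m difference was -0.12. H2-K1 was at 782, 764, 850 and 961 RPKM across WT and 646, 888, 744 and 825 in KO, with overlapping groups and the lowest value again in KO1. Its difference was -0.12 ± 0.15 (-0.44 to 0.21), and it was -0.033 without KO1, -0.051 without WT4 and -0.040 with library weights. H2-D1 was at 696, 799, 801 and 871 RPKM across WT, against 642, 816, 1131 and 709 in KO, where KO3 was highest of all libraries. Its difference was 0.03 ± 0.18 (-0.38 to 0.44), and it turned negative in 7 of 17 alternative settings. For H2-K1 and H2-D1 these intervals exclude a change by a factor of 2 in either direction, and they do not show that the levels were equal.

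The heavy chain genes resemble one another, so reads may be assigned to the wrong gene. Of all 50-base windows in the longest coding transcript, 8.79% of H2-K1 windows and 14.3% of H2-D1 windows also occur in another gene, and H2-D1 is the gene that shares most with H2-K1. The ratio of H2-K1 to H2-D1 RPKM was 0.956 to 1.12 in WT, and 1.01, 1.09 and 1.16 in KO1, KO2 and KO4, but 0.657 in KO3. KO3 thus differed from the rest in the balance of these 2 genes, in the library with the fewest genes listed. B2m RPKM over the sum of both heavy chains was 0.788 to 1.31 in WT and 0.767 to 0.966 in KO.

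The peptide transporter and tapasin did not pass the test either. Tap1 was at 61.4, 73.7, 64.7 and 69.8 RPKM across WT, against 47.5, 81.6, 85.8 and 102 in KO. The KO libraries held both the lowest value (KO1) and the 3 highest, so Tap1 varied more within KO (SD 22.8) than within WT (SD 5.44), and the log2 difference was 0.18 ± 0.24 (95% interval -0.35 to 0.71). It was -0.11 in the lane 4 libraries alone, 0.40 without KO1 and 0.044 without KO4. Tap2 ranged from 106 to 138 RPKM across WT and from 102 to 162 in KO (0.11 ± 0.18, interval -0.30 to 0.52), and it was -0.037 in lane 4 alone, 0.23 without KO1 and 0.014 without KO3. The transporter needs both chains, and the ratio of Tap1 to Tap2 RPKM was highest in KO4 (0.767) and WT2 (0.695) and between 0.465 and 0.589 in the other 6 libraries. Tapbp was the steadiest of the 10, with a coefficient of variation of 10.9% over the 8 libraries, a range of 56.4 to 75.0 RPKM across WT and 60.9 to 78.9 in KO, and a difference of 0.04 ± 0.17 (-0.35 to 0.43).

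**Figure D2:**
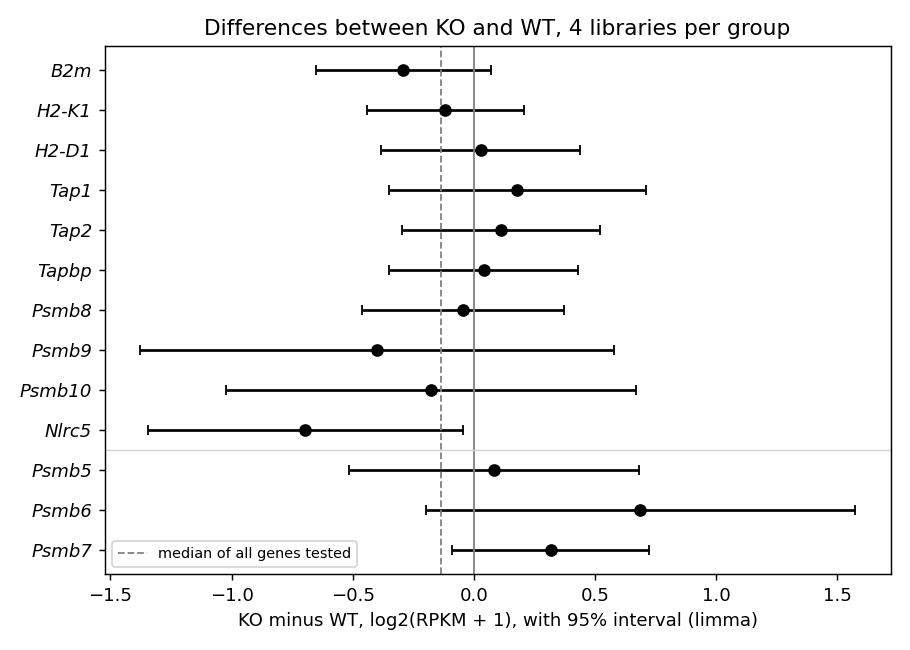
KO minus WT difference on log2(RPKM + 1) (horizontal axis) for the 10 genes and, below the line, the constitutive subunits; points are limma estimates and bars 95% intervals, with 4 libraries per group. The Nlrc5 interval (-1.35 to -0.05) is the only one that excludes 0, which it does not do in 7 of 17 alternative settings, and those of Psmb9, Psmb10 and Psmb6 are the widest.

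Of the immunoproteasome subunits, Psmb8 was the most abundant and the most even. It ranged from 188 to 259 RPKM across WT and from 173 to 282 in KO, with a log2 difference of -0.04 ± 0.19 (95% interval -0.46 to 0.37) that turned positive in 6 of 17 alternative settings. Psmb9 was at 53.6, 47.4, 47.7 and 70.5 RPKM across WT, against 33.7, 57.6, 86.6 and 16.1 in KO. The KO libraries spanned both extremes, KO3 highest and KO4 lowest, a 5.39-fold range. Its difference was -0.40 ± 0.44 (-1.38 to 0.58). Psmb10 was at 50.1, 28.8, 52.4 and 65.2 RPKM across WT, against 56.2, 55.2, 51.0 and 18.8 in KO. KO4 was again lowest, with WT2 next, while KO1 to KO3 lay within the WT range (-0.18 ± 0.38, interval -1.02 to 0.67). In the lane 4 libraries alone the Psmb10 difference was 0.23 and that of Psmb8 was 0.16, both opposite in sign to the values from all libraries. As folds, the intervals run from 0.385 to 1.49 for Psmb9 and from 0.492 to 1.59 for Psmb10, so changes within them are not excluded by these libraries.

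The standard catalytic subunits, which occupy the same places in the constitutive proteasome, had positive differences that did not pass. Psmb6 was at 59.1, 23.3, 82.4 and 67.2 RPKM across WT and 109, 101, 48.8 and 98.0 in KO (log2 difference 0.69 ± 0.40, limma adjusted p = 0.696). WT2 was lowest, KO3 lay inside the WT range and the other 3 KO libraries lay above it. Without WT2 the Psmb6 difference was 0.31. Psmb7 was at 85.3 to 105 RPKM across WT and 92.5 to 141 in KO (0.32 ± 0.18), and Psmb5 at 83.5 to 114 and 61.8 to 156 (0.09 ± 0.27). Of Psmb5 windows, 57.1% also occur in another gene, mostly in Gm3375, so its level is uncertain.

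Dividing each immunoproteasome subunit by its standard counterpart removes the scaling of the library. RPKM of Psmb8 over Psmb5 was 2.24, 2.05, 2.72 and 2.29 across WT and 1.95, 2.86, 2.80 and 1.28 in KO, so the listed value of Psmb8 exceeded that of Psmb5 in all 8 libraries. Because 57.1% of Psmb5 windows also occur in another gene, the size of this ratio is uncertain. The mean log2 ratio, with 1 added to each RPKM, was 1.20 ± 0.17 in WT and 1.07 ± 0.54 in KO (SD, n = 4; difference -0.13 ± 0.28, 2-sided exact permutation p = 0.714, adjusted over the 3 ratios 0.714). Psmb9 over Psmb6 was 0.908, 2.03, 0.579 and 1.05 across WT and 0.308, 0.568, 1.77 and 0.164 in KO. Of the KO libraries, 3 lay below all WT libraries and KO3 did not (mean log2 ratio 0.04 ± 0.73 and -1.05 ± 1.43, exact permutation p = 0.229, adjusted 0.343). Psmb10 over Psmb7 was 0.545, 0.322, 0.614 and 0.620 across WT and 0.399, 0.422, 0.482 and 0.203 in KO, so Psmb7 exceeded Psmb10 in every library. Its mean log2 ratio was -0.96 ± 0.44 in WT and -1.45 ± 0.54 in KO (exact permutation p = 0.229, adjusted 0.343). No ratio differed beyond the spread between libraries. The smallest p that 4 against 4 libraries can give is 0.0286. Without KO3 the mean log2 ratio of Psmb9 to Psmb6 differed by -1.71 and without KO4 by -0.59, against -1.09 with all libraries, and that of Psmb8 to Psmb5 turned to 0.11 without KO4. That of Psmb10 to Psmb7 was -0.23 without KO4, against -0.49 with all libraries.

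Psmb9 and Tap1 start at either end of the 225-base interval printed above. Psmb9 over Tap1 RPKM was 0.873, 0.643, 0.737 and 1.01 across WT and 0.709, 0.705, 1.01 and 0.158 in KO. In 7 libraries the ratio thus stayed between 0.643 and 1.01. KO4 alone departed, with Tap1 at its highest (102 RPKM) and Psmb9 at its lowest (16.1 RPKM) of the 8 libraries. KO4 listed 61 of 3943 genes with a mean above 20 RPKM at 0. KO3 listed 175 of them at 0, WT2 listed 47, and the 5 libraries that did not stand apart listed 6 to 20. The part of these zeros in the ratio was not tested.

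**Figure D3:**
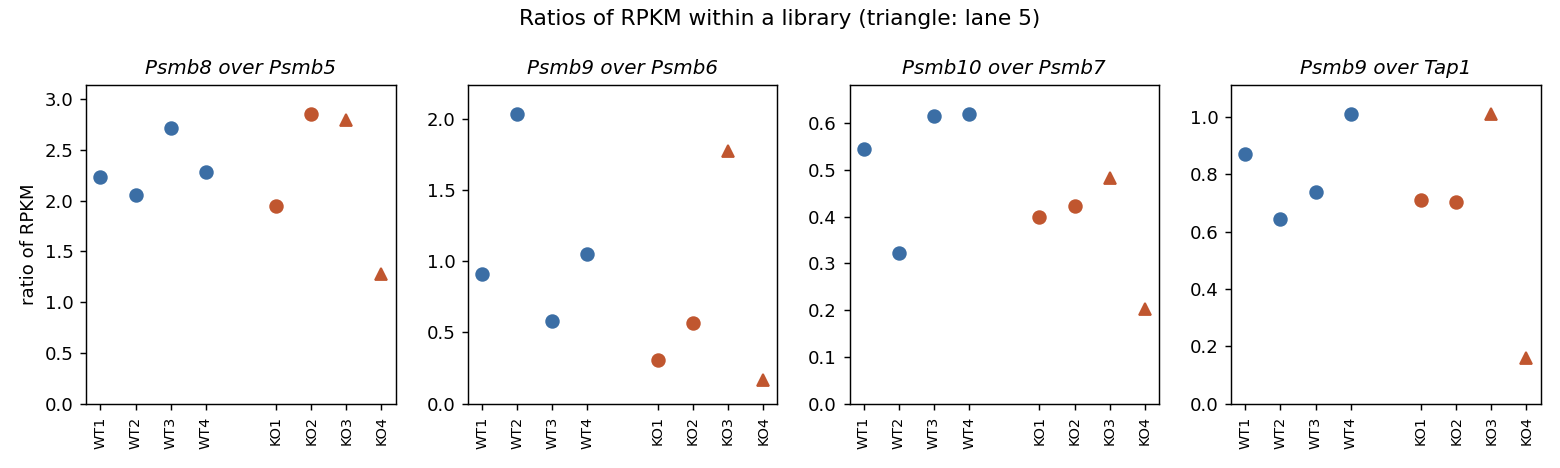
Ratio of RPKM within each library (vertical axes, from 0) for the 3 immunoproteasome subunits over their standard counterparts and for Psmb9 over Tap1, with WT in blue, KO in orange and lane 5 libraries as triangles. KO4 is the lowest point in all 4 panels, and for Psmb9 over Psmb6 only KO3 reaches the WT range.

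KO1 was the lowest library for 6 of the 10 genes (B2m, H2-K1, H2-D1, Tap1, Tap2 and Nlrc5), whereas it was lowest for 11.6% of all genes tested. Over all genes tested the lowest library was KO3 for 34.1%, WT2 for 19.6% and KO4 for 14.7%, the libraries that list more genes at 0. KO1 was lowest for 33.3% of the other class I genes and 33.3% of the regulators described below. It was lowest for 0.0% of the standard catalytic subunits, the loading and folding genes, and the proteasome cap and assembly genes. KO1 was also the highest library for 8 of 10 genes of peptide loading and protein folding in the endoplasmic reticulum, where 9.93% of all genes tested were highest in KO1. Calr, the chaperone that holds class I molecules in the loading complex, was at 1047 to 1348 RPKM across WT, against 3137, 1825, 1558 and 1262 in KO. Its log2 difference was 0.60 ± 0.25 (limma adjusted p = 0.637), and KO4 lay inside the WT range. Pdia3, the oxidoreductase that works with tapasin, was at 151 to 184 RPKM across WT and 166 to 256 in KO (0.27 ± 0.17), and the chaperone gene Hspa5 at 123 to 173 and 146 to 351 (0.40 ± 0.27). Lnpep, a peptidase of the endosomal cross-presentation route, was at 18.6 to 27.7 RPKM across WT and 5.72 to 22.3 in KO (-0.81 ± 0.37). Without KO1 the difference was 0.34 for Calr, 0.16 for Pdia3 and 0.15 for Hspa5, and without KO3 that of Lnpep was -0.48. Of the 10 genes of this group, 0 passed the threshold, 8 had positive and 2 negative differences, and the median was 0.29, beside -0.14 for all genes tested.

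The other class I and class I-like genes had mostly negative differences. Of 17 found, 15 were tested: 0 passed, 12 had negative and 3 positive differences, and the median was -0.31, where 61.0% of all genes tested were negative and their median was -0.14. Because these genes share reads, their differences are not independent of one another. H2-Q4 was at 160, 189, 203 and 199 RPKM across WT and 82.1, 154, 164 and 135 in KO. KO3 alone lay within the WT range, and KO1 was lowest (-0.52 ± 0.23, limma adjusted p = 0.647). Without KO1 the difference was -0.31. H2-Q10 was at 23.3 to 43.6 RPKM across WT and 14.6 to 28.1 in KO (-0.62 ± 0.28, limma adjusted p = 0.662). H2-Q6 and H2-Q7, the most abundant of the Q genes tested, stood at 358 ± 45.9 and 278 ± 34.4 RPKM in WT against 294 ± 91.1 and 228 ± 52.3 in KO (SD, n = 4), with differences of -0.33 ± 0.22 and -0.31 ± 0.20. H2-T23, which encodes the heavy chain Qa-1 that presents leader peptides of other class I molecules, was at 274 ± 40.0 and 271 ± 74.3 RPKM (-0.04 ± 0.21). These genes are uncertain one by one: 8 of the 17 share more than 20% of their 50-base windows with another gene, up to 44.7% in H2-T22, 34.9% in H2-Q7 and 32.0% in H2-Q6.

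The proteasome activator and the assembly chaperones gave no call in 9 genes tested, 5 positive and 4 negative, with a median of 0.08. Psme1 and Psme2 encode the PA28 cap, which opens the proteasome in interferon-treated cells. Psme1 was at 185 ± 30.3 RPKM across WT and 176 ± 35.7 in KO (-0.08 ± 0.20), and Psme2 at 70.2 ± 5.30 and 94.5 ± 29.6 (0.38 ± 0.22), with KO1 at 137 RPKM as its highest library. Psme3, which encodes the nuclear cap, ranged from 75.1 to 83.7 RPKM across WT and from 44.4 to 165 in KO (0.21 ± 0.34). Pomp, which helps immunoproteasome precursors to mature, was at 94.7 ± 23.3 and 79.3 ± 8.30 RPKM (-0.22 ± 0.21). The assembly chaperone gene Psmg1 was at 19.1 to 40.7 RPKM in WT, at 32.7 and 36.9 in KO1 and KO2, and listed at 0 in KO3 and KO4, the libraries that list many expressed genes at 0.

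The regulators comprised factors that act on class I promoters, and interferon receptors with their kinases. Among the 24 tested, 0 passed, 14 had positive and 10 negative differences, and the median was 0.16. Irf1, an interferon-induced activator of class I and immunoproteasome genes, was at 33.9, 34.2, 18.6 and 24.7 RPKM across WT and 9.46, 15.8, 19.2 and 18.6 in KO. WT3 overlapped the KO range and the other 3 WT libraries lay above it (-0.79 ± 0.30, limma adjusted p = 0.634). Irf8, a myeloid and dendritic cell factor, was at 9.54 to 28.9 RPKM across WT and 31.9 to 42.0 in KO, without overlap (1.14 ± 0.34, limma adjusted p = 0.515). The myeloid marker Csf1r was likewise higher in all 4 KO libraries than in any WT library. The other 4 tested genes of its marker list had negative differences, from -1.20 (Itgax) to -0.04 (Lyz2). The part of Csf1r in the Irf8 difference was not tested. Ifngr1, a chain of the interferon gamma receptor, was at 91.8 ± 7.57 and 120 ± 35.7 RPKM (0.33 ± 0.22). Ezh2, a Polycomb methyltransferase that can silence class I genes, was at 76.8 to 100.3 RPKM across WT and 56.6 to 124 in KO (-0.24 ± 0.26), and the CREB-family gene Atf1 at 49.3 ± 12.8 and 56.3 ± 13.2 (0.19 ± 0.25). Of all 61 other pathway genes tested, 0 passed the adjusted threshold and 5 had an unadjusted limma p under 0.05, 2 higher and 3 lower, beside 7.51% of all genes tested.

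**Figure D4:**
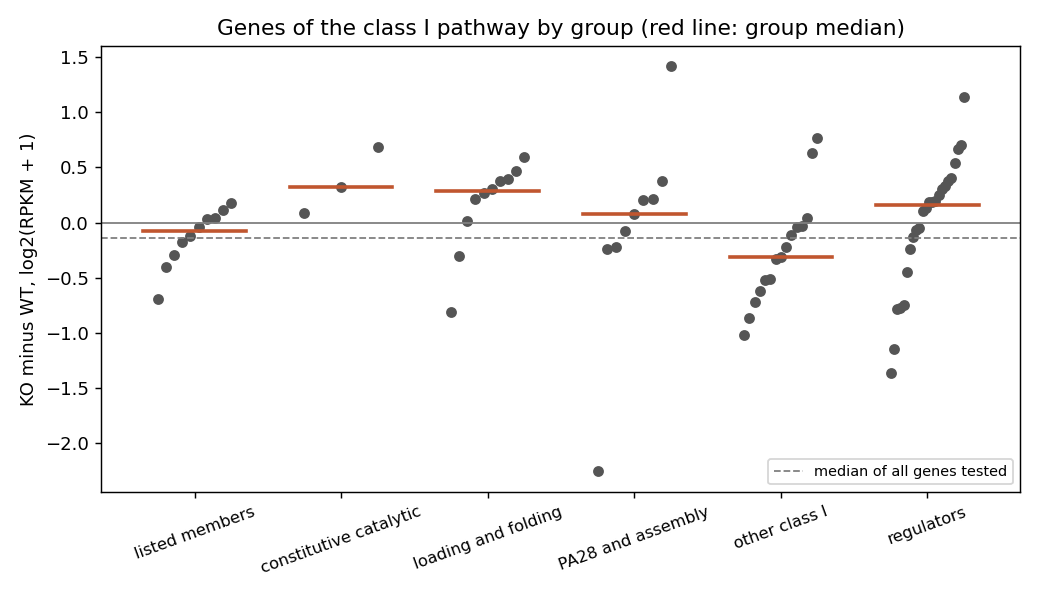
KO minus WT difference on log2(RPKM + 1) (vertical axis) of each tested gene, sorted within its group (horizontal axis), with red lines at group medians and a dashed line at the median of all genes tested (-0.14). The medians run from -0.31 (other class I genes) to 0.32 (constitutive catalytic subunits), and no gene shown passed the adjusted threshold.

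The genes whose profile over the 8 libraries was nearest to the mean profile of the 10 were Mcrip1, Oxct1, Gata2, Sirt3 and Grb2. The measure was the root mean square distance of centred log2(RPKM + 1) values, which was 0.0810 to 0.0957 for these 5 and had a median of 0.583 over all other genes tested. Mcrip1 was at 117 to 137 RPKM across WT, against 102, 121, 143 and 91.4 in KO. The mean profile itself lay at a root mean square distance of 0.158 from a flat line. Nearest to Nlrc5 were Loxl2, Sbf1, Naip6, Zfp521 and Orc4, at distances of 0.157 to 0.165 against a median of 0.718. Loxl2 was at 14.7, 23.4, 16.2 and 13.6 RPKM across WT and 9.95, 9.55, 7.42 and 12.1 in KO, with WT2 high as in Nlrc5. Both sets of genes were picked as the nearest of all genes tested. Their likeness to the reference, and their distance below the median, therefore follow from the search and test nothing.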

How the data were processed

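The series holds 8 RNA-seq libraries, 4 per genotype, grouped by their titles. TopHat, edgeR and mm9 are named in the submitters' processing notes, with neither role nor version; how reads were counted is not given in the sources used. The authors deposited 1 RPKM value per Entrez gene; the unit is not stated and was inferred, because values times the longest transcript length sum to nearly the same total in each library. The labels name both a paired-end and a single-read flow cell. Of 24112 IDs, 24029 (99.7%) matched a GRCm38.p6 symbol; this table was used for names alone. The upstream sequences and their coordinates are RefSeq's on GRCm38.p6, not the authors' mm9, and no measured value was placed by coordinate.

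The members and gene lists were chosen with earlier results of these data known. Genes reaching 1 RPKM in 4 or more libraries were tested on the log2(RPKM + 1) scale (limma 3.58.1, R 4.3.3; genotype as the only term, eBayes with trend and robust variance, Benjamini-Hochberg over all 11276 genes tested, threshold 0.05); this scale understates the change of low genes. All 10 members passed the filter. Subunit ratios were tested by 2-sided exact permutation over 70 assignments. Depth was estimated from values up to 0.2 RPKM, of which 61.0% to 73.5% were whole reads within 0.05 reads, so whole reads were not recovered and no count test was run; no counting interval is given. The tests were checked on simulated data. Named genes are the members, the standard catalytic subunits, the 3 most abundant and the 2 of smallest p in each pathway list, and the 5 nearest profiles; of 66 other pathway genes listed, 64 were found. The alternatives were the filter, the pseudocount, lane, the replicate block, quantile normalization, library weights and leaving out libraries.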

Additional observations from a re-analysis of the deposited data

Results flagged for a closer look

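Of 72 groups of 4 libraries examined, 3 held a library whose gap to its nearest neighbour was large beside the range of its group; chance gives about 1 in 20. Psmb10 was at 18.8 RPKM in KO4, against 51.0 to 56.2 in the other KO libraries. Nlrc5 was at 23.6 RPKM in WT2, against 12.9 to 14.7 in the other WT libraries. Hspa5 was at 123 RPKM in WT2, against 169 to 173 in the other WT libraries. KO4 and WT2 are among the 3 libraries that list fewer genes above 0, and the part of this in these values was not tested.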

How the results depend on the processing

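In limma 0 of the 10 genes and 0 of the other pathway genes passed an adjusted p of 0.05 in all 17 alternatives. Over all genes tested, limma called 0 at the adjusted threshold (847 at an unadjusted p under 0.05), 2 in the lane 4 libraries alone, 164 with library weights, 3 without WT2, KO3 and KO4, and 0 to 2 with 1 library left out (2 without KO3). Traf6 passed with library weights (-2.52, limma adjusted p = 0.00785). With lane as a covariate the fitted differences equal those of lane 4 alone, but the tests do not: it called 0 genes (658 at an unadjusted p under 0.05, against 1239 in lane 4 alone), and the Nlrc5 limma adjusted p was 0.833 against 0.378. In lane 4 alone, and likewise with the lane term, signs turned for H2-D1 (-0.13), Tap1 (-0.11), Tap2 (-0.037), Psmb8 (0.16), Psmb10 (0.23), Psme1 (0.17) and Psmg1 (0.32). Dropping WT2, KO3 and KO4 together gave -0.12, -0.063, -0.10, 0.14, 0.0035, 0.10 and 0.15 for these genes in the same order. With library weights signs turned for H2-D1 (-0.026), Psmb8 (0.22), Psmb10 (0.0024), Psme1 (0.14) and H2-T23 (0.043), and with quantile normalization for H2-D1 (-0.037) and Tapbp (-0.022). With 1 library left out at a time, differences spanned 0 for H2-D1 (-0.14 to 0.14), Tapbp (-0.037 to 0.098), Psmb8 (-0.18 to 0.058), Psmb9 (-0.76 to 0.031), Psmb10 (-0.41 to 0.19), Psme1 (-0.18 to 0.020), Psme3 (-0.073 to 0.55) and H2-T23 (-0.20 to 0.073). The log2 ratio difference of Psmb8 to Psmb5 turned to 0.030 in lane 4 alone. Leaving out 1 library at a time, its difference ran from -0.27 to 0.11, that of Psmb9 to Psmb6 from -1.71 to -0.59, and that of Psmb10 to Psmb7 from -0.71 to -0.23. No ratio passed. In lane 4 alone, with KO1 and KO2 as the only KO libraries, none could pass, whatever its values. The causes of the changes between settings were not tested. Same-numbered WT and KO libraries did not deviate together (correlations of deviations -0.080 to -0.038). The best matches with other numbers were also weak (0.034 to 0.14), so this check cannot decide whether equal numbers mark pairs. With the replicate number as a block limma called 0 genes (705 at an unadjusted p under 0.05), and Nlrc5 had -0.70 ± 0.37. The ratio differences of -0.13, -1.09 and -0.49 then had exact sign-flip permutation p of 0.750, 0.375 and 0.375, where 4 pairs cannot go below 0.125. With 4 libraries a group, the width of the intervals limits what could be detected.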
